A study of Mus musculus with 8 samples.

Results

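The genes of leukemia inhibitory factor (LIF), its receptor, the related cytokines that signal through gp130, and the transcription factor STAT3 were followed in CD11b+ myeloid cells after LIF blockade. The 10 genes were Lif, Osm, Il6, Il11, Lifr, Osmr, Il6ra, Il6st, Stat3 and Socs3, chosen by symbol for their role in this pathway, out of 22180 genes measured. All 10 were found on the array, with 1 array feature each except Socs3, which had 2 features that were averaged. The cells came from the ascites of female C57BL/6 mice injected intraperitoneally, as young adults, with ID8 cells, a mouse ovarian cancer line. The anti-LIF group held 4 mice (replicates 5 to 8), given a LIF-neutralizing antibody from day 12 after inoculation over 25 days, and the control group held 4 tumor-bearing mice (replicates 1 to 4), which the sample labels call untreated and the methods describe as given a control IgG. The CD11b+ fraction was isolated on magnetic beads, and each mouse gave 1 Affymetrix Mouse Gene 2.1 ST array. Levels are given as RMA-normalized log2 intensities (RMA being the robust multi-array average), so that a difference of 1 is a doubling.

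gp130, encoded by Il6st, is the receptor chain shared by the IL-6 family of cytokines. LIF joins gp130 to the LIF receptor chain, mouse oncostatin M (OSM) mainly joins gp130 to the OSM receptor chain, and IL-6 and IL-11 first bind an alpha chain of their own. The gp130 complexes activate the kinases JAK1, JAK2 and TYK2, which phosphorylate STAT3, and STAT3 switches on Socs3, whose product binds gp130 and dampens the signal. In macrophages this pathway is known to shape wound-repair and immunosuppressive states. A neutralizing antibody binds the secreted LIF protein and does not target its transcript, and an array measures neither LIF protein nor the phosphorylation of STAT3.

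Several of the genes lie beside each other in the mouse RefSeq annotation. Osm and Lif are neighbouring coding genes on chromosome 11, and Osmr and Lifr are neighbours on chromosome 15. Il6st is followed on chromosome 13 by Il31ra, the gene of another gp130-like receptor, and Stat3 stands next to Stat5a on chromosome 11. RefSeq promoters were matched for 9 of the 10 genes. The 250 bases before the annotated start are shown for Lif and Il6st, the genes called lower below, and for Socs3, the classic STAT3 target (GRCm38.p6). Lif lies at chr11:4257318-4257567 on the plus strand, Il6st at chr13:112463820-112464069 on the plus strand and Socs3 at chr11:117969367-117969616 on the minus strand, and capitals mark a motif match.
Lif: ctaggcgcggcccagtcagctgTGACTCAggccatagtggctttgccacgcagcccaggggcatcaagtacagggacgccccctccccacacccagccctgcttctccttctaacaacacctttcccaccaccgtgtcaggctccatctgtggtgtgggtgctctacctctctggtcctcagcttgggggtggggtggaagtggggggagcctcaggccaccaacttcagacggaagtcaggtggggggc
Il6st: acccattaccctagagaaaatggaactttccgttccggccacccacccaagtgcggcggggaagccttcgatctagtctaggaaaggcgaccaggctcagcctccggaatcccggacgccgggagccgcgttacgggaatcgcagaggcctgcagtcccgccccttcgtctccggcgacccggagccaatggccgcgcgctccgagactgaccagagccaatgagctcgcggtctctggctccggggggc
Socs3: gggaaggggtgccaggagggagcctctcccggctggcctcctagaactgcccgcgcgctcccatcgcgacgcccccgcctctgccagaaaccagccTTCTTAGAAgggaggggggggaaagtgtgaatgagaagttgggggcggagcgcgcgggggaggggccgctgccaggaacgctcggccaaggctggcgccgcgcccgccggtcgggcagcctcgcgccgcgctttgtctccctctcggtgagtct

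The stretches were searched on both strands for a STAT motif (TTCNNNGAA), an AP-1 motif (TGA and TCA with any base between them), a TATA motif (TATAAA) and an E-box (CACGTG), none of which overlapped another in these promoters. The Socs3 promoter held the STAT motif as TTCTTAGAA, 154 to 146 bases before the start, and it was the only matched promoter of these genes with one. Of 32851 RefSeq promoters, 7.02% held that motif in the same window. Lif, Il6 and Il11 each had a promoter with the AP-1 motif, which 6.75% of all promoters held, and in Lif it read TGACTCA at 228 to 222 bases before the start. Il6ra had the E-box, held by 6.02% of all promoters. The TATA motif, in 12.4% of all promoters, had no match among them, nor had the Il6st window any of the 4 motifs. A match is a run of letters and not a measured binding site.

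The preparations were checked against cell type markers before the genes were compared. Over 8 macrophage genes, Itgam (CD11b) among them, the mean log2 level per mouse was 8.38 to 8.72 in anti-LIF mice and 8.81 to 9.62 in control mice, and 4 of the 8 fell, led by Cd68 (-1.41, adjusted p = 0.0028 from limma). Itgam, the marker used for the isolation, was not called (-0.17, adjusted p = 0.59 from limma). Of all genes at mean log2 levels of 7 to 8, 8 to 9 and above 9, 29.5%, 36.2% and 37.6% were called lower. With quantile normalization again 2 of the 8 were called lower, Cd68 and Mertk. Genes of tumor and mesothelial cells were plainly present as well, with a mean over 10 genes of 8.40 to 8.68 in anti-LIF mice and 8.14 to 8.64 in control mice. Among them Muc16 (1.88) and Lrrn4 (0.74) rose, and Krt18 (-0.69) and Krt19 (-0.40) fell. With quantile normalization again Krt18 (-0.39, adjusted p = 0.11) and Krt19 (-0.13, adjusted p = 0.62) were not called. In that setting 3 of the 10 were called higher, Muc16 (2.13, adjusted p = 0.0023 from limma), Lrrn4 and Upk3b, and 0 lower. With each of the 8 mice left out in turn, Muc16 and Krt18 were called in all 8 runs, and Krt19 and Lrrn4 in 2 runs each. Of the other lists, T and NK cell genes averaged 3.98 to 4.72 in anti-LIF mice and 3.64 to 3.94 in control mice (2 of 8 higher), neutrophil genes 5.28 to 5.76 and 5.62 to 6.33 (2 of 8 lower), monocyte genes 6.29 to 7.55 and 6.50 to 7.57 (1 of 4 higher, 1 lower), fibroblast genes 6.08 to 6.24 and 5.54 to 6.10, and B cell genes 3.87 to 4.07 and 3.80 to 3.93, with no fibroblast or B cell gene called by limma (2 fibroblast and 0 B cell genes were higher, and 0 lower, at an unadjusted p under 0.05). With quantile normalization again 2 of the 6 fibroblast genes, Col1a1 and Pdgfra, were called higher. Of the monocyte genes, Ly6c2 rose (1.73, adjusted p = 0.025 from limma) and Chil3 fell (-2.67, adjusted p = 0.003 from limma). Anti-LIF replicate 6 stood apart in Ly6c2, at 8.54 against 6.04 to 6.61 in the other anti-LIF mice. In Chil3 it did not, at 6.36 against 5.55 to 7.27. In such bulk samples, fewer cells of a type and less RNA per cell cannot be told apart, and which cells carried each transcript was not tested.

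The difference between the groups also depended on how bright a gene was. Among 862 genes with a mean log2 level of 8 to 9, the median difference, anti-LIF minus control, was -0.25, and 36.2% of them were called lower. Among 3354 genes at a level of 5 to 6 the median was -0.06 and 13.8% were called lower, and among 5173 genes at 3 to 4 it was 0.13 and 0.851% were called lower. Quantile normalization of the arrays a second time brought these medians to -0.01, 0.00 and 0.00. Each gene below was therefore also set beside the median gene of its own level. Whether this slope arose in the cells or on the arrays was not tested.

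**Figure D1:**
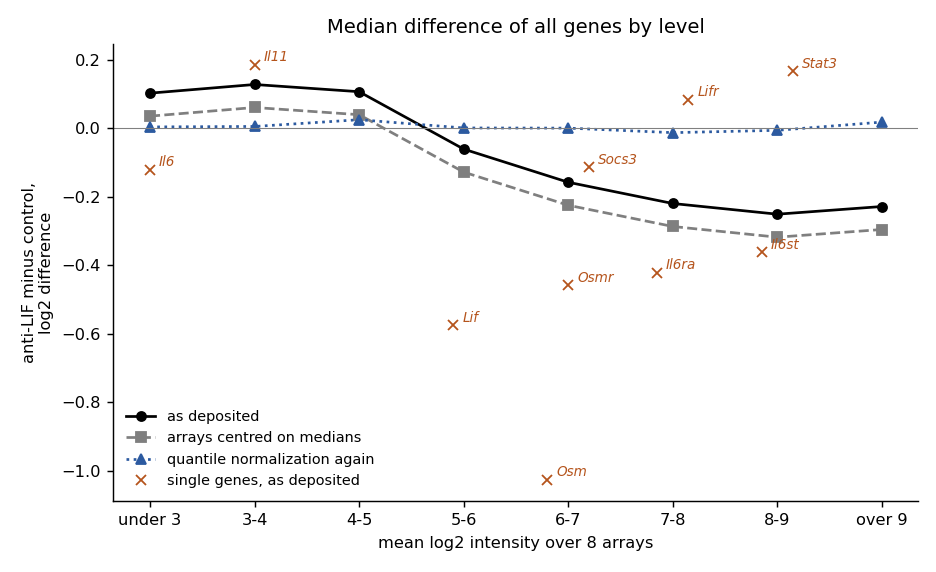
Median log2 difference (anti-LIF minus control, y axis) of all genes in classes of mean log2 intensity (x axis), for the values as deposited and under a pair of other scalings, with crosses for the single genes placed in their class. The deposited values slope from 0.13 at a level of 3 to 4 down to -0.25 at 8 to 9, and Stat3 lies above the line where Il6st lies just under it.

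Of the 10 genes, Lif and Il6st fell in anti-LIF mice, none rose, and 8 did not pass the test (limma, adjusted p under 0.1). Over all genes, 11.0% were called lower and 5.79% higher, so that 2 of 10 is not far from the share on the whole array. At an unadjusted p under 0.05, 4 of the 10 were lower and 0 were higher, against 15.5% lower and 11.1% higher over all genes. Shares called lower at an adjusted p under 0.1 depended on level. They were 0.646% at the level of Il6, 13.8% at that of Lif and 36.2% at that of Il6st and Stat3. The unadjusted shares were not split by level. The median difference of the 10 genes was -0.24, against 0.03 over all genes, and -0.16 once the median gene of each one's own level was subtracted. The 2 called genes were also the 2 whose groups did not overlap. The lower mean level of the macrophage markers (4 of 8 fell, Itgam not among them, and 2 of 8 with quantile normalization again) went along with these differences. Its part in them was not tested. On the whole array, 11.9% of genes had all anti-LIF mice below all control mice and 6.53% had them above.

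Among the ligands, Lif itself, the cytokine that the antibody blocks, fell. Its log2 values were 4.85, 4.95, 4.98 and 4.85 in anti-LIF mice (replicates 5 to 8), against 5.16, 5.25, 5.84 and 5.68 in control mice (replicates 1 to 4). The anti-LIF mice lay close together below every control mouse, and the control mice were spread out, with replicates 3 and 4 highest. The means were 4.91 ± 0.07 (SD, n = 4) in anti-LIF mice and 5.48 ± 0.33 (SD, n = 4) in control mice, which is 1.49-fold lower. The log2 difference was -0.58 (standard error 0.16, 95% interval -0.93 to -0.22, adjusted p = 0.044 from limma). The exact two-sided permutation test gave p = 0.029, the smallest that 4 mice against 4 allow. The call held under all 24 ways of pairing the mice, and was lost without control replicate 3 (-0.46, adjusted p = 0.104) or control replicate 4 (-0.51, adjusted p = 0.105). The difference was -0.51 relative to the median gene of its level.

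The level of Lif was above the median gene of the array (4.61). Olfactory receptor genes, most of which are used mainly by the nose although some are known to be active in macrophages, gave a yardstick for the dim end of the array, with a median level of 2.61 over 1105 genes, and 95% of them lay below 4.56 and 99% below 5.51. The mean of Lif over all mice, 5.19, exceeded 98.2% of them. Its anti-LIF mean, 4.91, and its control mean, 5.48, both lay between 4.56 and 5.51. Probes differ in their background, so this yardstick does not set a detection limit for any single gene.

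Osm encodes oncostatin M, a gp130 cytokine made mainly by activated macrophages and neutrophils. Its log2 values were 5.57, 5.18, 5.86 and 6.37 in anti-LIF mice, against 5.84, 7.27, 7.71 and 6.27 in control mice. Control replicates 2 and 3 were far above all other mice, whereas control replicates 1 and 4 lay within the anti-LIF range. The means were 5.74 ± 0.50 (SD, n = 4) in anti-LIF mice and 6.77 ± 0.87 (SD, n = 4) in control mice. This was the largest difference among the 10 genes, -1.03 (95% interval -1.85 to -0.20), and limma did not call it (adjusted p = 0.11, exact permutation p = 0.14). It passed without control replicate 1 (-1.34, adjusted p = 0.035) or anti-LIF replicate 8 (-1.24, adjusted p = 0.089), and in 12 of the 24 pairings. Those were the only 2 of 8 runs with a mouse left out in which it passed. The difference was -0.87 relative to the median gene of its level. With quantile normalization again it was -0.90 (adjusted p = 0.16 from limma).

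Il6 and Il11, the ligands that use an alpha chain, were at the dim end. Il6, a cytokine of acute inflammation, had 2.36, 3.23, 2.95 and 3.04 in anti-LIF mice, against 2.72, 2.33, 3.20 and 3.81 in control mice. Its mean exceeded 63.1% of the olfactory receptor genes. Il11, known in bone marrow and fibrosis, had 4.48, 3.28, 3.68 and 4.05 in anti-LIF mice, against 3.53, 3.69, 4.03 and 3.51 in control mice, and its mean exceeded 86.4% of them. The groups overlapped for both genes, with log2 differences of -0.12 (95% interval -0.75 to 0.51) for Il6 and 0.19 (95% interval -0.32 to 0.69) for Il11. Relative to the median gene of its level, Il6 stood at -0.22 and Il11 at 0.06. No difference was detectable for either at this level.

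**Figure D2:**
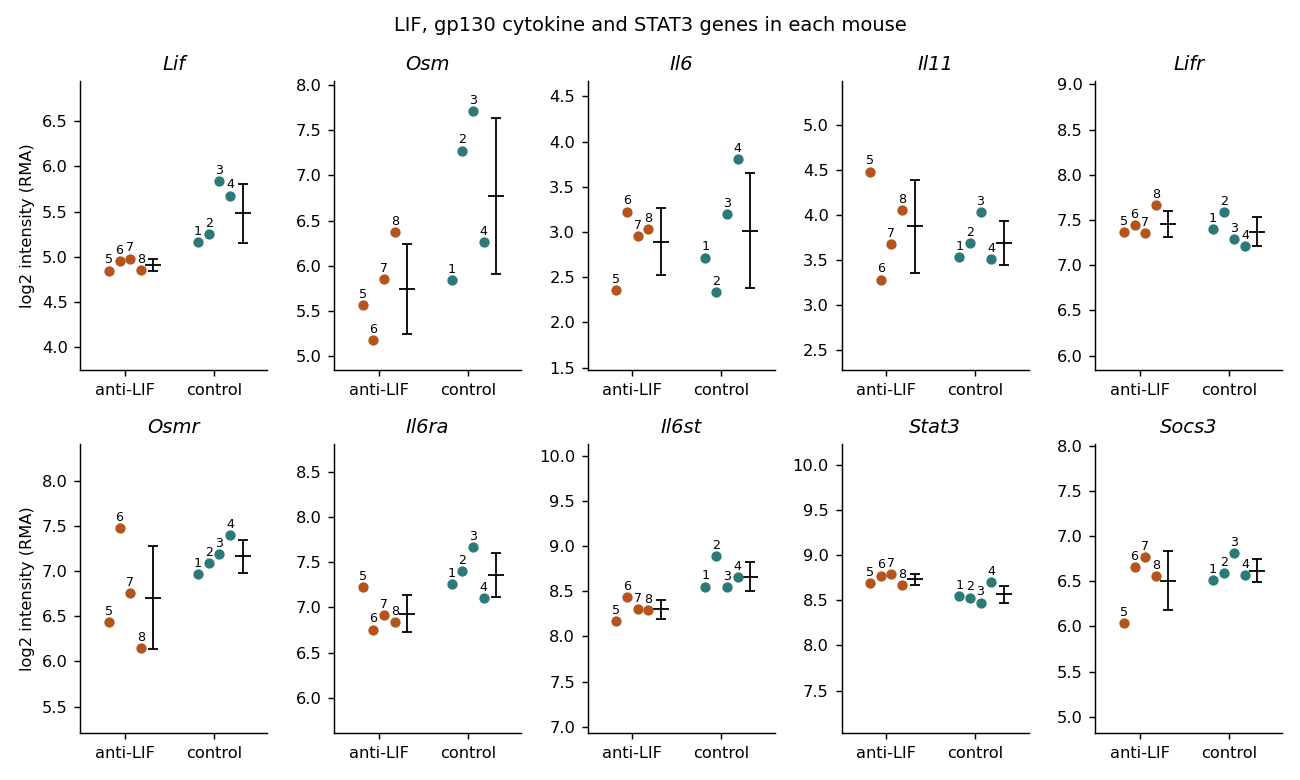
Log2 intensity (RMA, y axis) of each gene in every mouse, with the mouse's replicate number above its point and the group mean ± SD as a black bar, and every panel spanning the same number of log2 units. The anti-LIF mice lie below all control mice for Lif and Il6st, and overlap with them for the other 8 genes.

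Among the receptors, Il6st fell and Lifr did not pass the test. Il6st, the gene of gp130, had 8.17, 8.43, 8.30 and 8.29 in anti-LIF mice, against 8.55, 8.89, 8.55 and 8.66 in control mice. All anti-LIF mice were below all control mice, by a narrow gap between anti-LIF replicate 6 and control replicates 1 and 3. The means were 8.30 ± 0.11 (SD, n = 4) in anti-LIF mice and 8.66 ± 0.16 (SD, n = 4) in control mice, with a log2 difference of -0.36 (standard error 0.13, 95% interval -0.64 to -0.08, adjusted p = 0.095 from limma). The median gene of its level had a difference of -0.25, so that Il6st was 0.11 below it, and with quantile normalization again its difference was -0.12 (adjusted p = 0.65). The call held without control replicate 1 (adjusted p = 0.098), was lost without any of the other 7 mice, and was made in 0 of the 24 pairings.

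Lifr encodes the chain that binds LIF. Its log2 values were 7.37, 7.44, 7.35 and 7.66 in anti-LIF mice, against 7.40, 7.59, 7.29 and 7.21 in control mice. The groups were interleaved, and the difference was 0.08 (95% interval -0.21 to 0.37, adjusted p = 0.73 from limma). On the linear scale that interval runs from 0.867-fold to 1.30-fold of control. Lifr stood 0.30 above the median gene of its level. With quantile normalization again its difference was 0.29 and was not called (adjusted p = 0.23 from limma).

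Osmr, the OSM receptor gene, varied most within the anti-LIF group. Its log2 values were 6.44, 7.47, 6.76 and 6.15 in anti-LIF mice, against 6.97, 7.09, 7.19 and 7.40 in control mice. Anti-LIF replicate 6 was the highest of all mice while the other anti-LIF mice were below every control mouse. The difference was -0.46 (95% interval -0.99 to 0.07, adjusted p = 0.25 from limma), and without anti-LIF replicate 6 it was -0.72 (adjusted p = 0.034). That was the only 1 of 8 runs with a mouse left out in which Osmr passed. Osmr stood 0.30 below the median gene of its level. With quantile normalization again its difference was -0.27 (adjusted p = 0.57 from limma). Il6ra, the gene of the IL-6 binding chain, had 7.22, 6.75, 6.92 and 6.84 in anti-LIF mice, against 7.26, 7.40, 7.67 and 7.10 in control mice. Here the groups overlapped through anti-LIF replicate 5 and control replicate 4. Its difference was -0.42 (95% interval -0.77 to -0.08, adjusted p = 0.11 from limma, exact permutation p = 0.057), and it passed without anti-LIF replicate 5 (-0.52, adjusted p = 0.075) or control replicate 4 (-0.51, adjusted p = 0.087). Those were the only 2 of 8 such runs in which Il6ra passed. The median gene of its level had a difference of -0.22. With quantile normalization again Il6ra had a difference of -0.23 (adjusted p = 0.40 from limma).

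Stat3 and Socs3, the transcription factor and its feedback inhibitor, were not called. Stat3 had 8.69, 8.77, 8.79 and 8.67 in anti-LIF mice, against 8.55, 8.53, 8.47 and 8.70 in control mice. The anti-LIF mice were above control replicates 1 to 3, and control replicate 4 lay among them. The difference was 0.17 (95% interval -0.08 to 0.42, adjusted p = 0.38 from limma, exact permutation p = 0.086). Since the median gene of its level was at -0.25, Stat3 stood 0.42 above it, and with quantile normalization again Stat3 was called higher (0.41, adjusted p = 0.057).

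Socs3 had 6.03, 6.66, 6.77 and 6.56 in anti-LIF mice, against 6.51, 6.59, 6.81 and 6.57 in control mice. Anti-LIF replicate 5 was the lowest, and the other 7 mice were close together. The difference was -0.11 (95% interval -0.48 to 0.25, adjusted p = 0.70 from limma), near the -0.16 of the median gene of its level. Its direction turned with quantile normalization again (0.04) and without anti-LIF replicate 5 (0.04). The 2 features of Socs3 had differences of -0.11 and -0.12. The interval goes down to 0.718-fold of control, and a larger fall of the Socs3 transcript lies outside it.

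**Figure D3:**
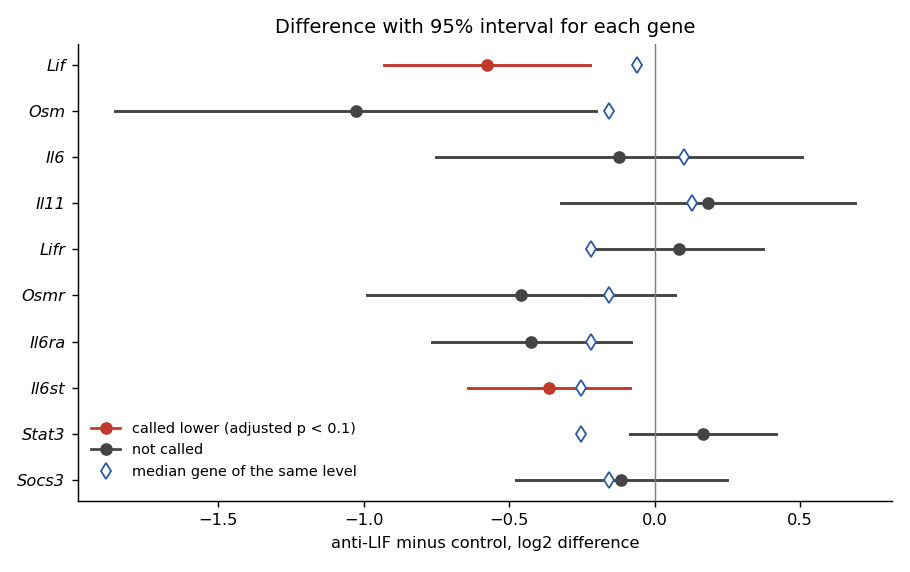
Log2 difference (anti-LIF minus control, x axis) with its 95% interval from limma for each gene, and the median difference of all genes of the same level as an open diamond. Lif and Il6st are called lower, and the diamond of Il6st (-0.25) lies inside its interval whereas that of Lif (-0.06) lies outside.

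Other ligand genes of the IL-6 family moved in both directions. Of 6 such genes measured, Clcf1 and Ebi3 fell, Il27 rose and 3 did not pass the test, with a median difference of 0.01. Over all genes, 11.0% were called lower and 5.79% higher, the shares to set beside this list and those that follow. Il27, the p28 subunit gene of interleukin-27, had 5.42, 5.57, 5.60 and 5.53 in anti-LIF mice, against 4.96, 4.81, 4.73 and 4.74 in control mice. These groups were well apart, with a log2 difference of 0.72 (standard error 0.12, limma's adjusted p = 0.0048), and the call held without each of the 8 mice in turn. Ebi3, which encodes the partner subunit of interleukin-27, had 5.09, 5.34, 5.03 and 4.93 in anti-LIF mice, against 5.58, 5.56, 6.42 and 5.37 in control mice (-0.63, adjusted p = 0.078). That call was lost without anti-LIF replicate 5, 7 or 8 or control replicate 2 or 3, and without control replicate 3, the highest mouse, the difference was nearest to 0 (-0.41). Clcf1, the gene of cardiotrophin-like cytokine factor, which acts through the LIF receptor chain and gp130, had a difference of -0.49 (adjusted p = 0.032), and of -0.28 (adjusted p = 0.19) with quantile normalization again. Of 3 further receptor genes of the IL-6 family, none passed the test in limma, and their differences ran from 0.12 to 0.28, with 0 of them at an unadjusted p under 0.05. These 3 were dim, with a mean per mouse of 3.71 to 3.83 in anti-LIF mice and 3.39 to 3.75 in control mice. That is below 4.56, the level that 95% of olfactory receptor genes stay under.

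The kinases and STAT factors downstream of gp130 were not called. None of 8 genes passed the test in limma, with a median difference of -0.10 and 1 gene higher and 1 lower at an unadjusted p under 0.05. With quantile normalization again 1 of the 8, Stat2, was called higher. Jak1 had a difference of -0.14 (95% interval -0.40 to 0.12), Jak2 of -0.22 (95% interval -0.52 to 0.07) and Tyk2 of -0.06 (95% interval -0.36 to 0.25), and all 3 turned positive with quantile normalization again (0.09, 0.01 and 0.03). Jak3 and Il11ra1 had no feature with a single symbol and were not analysed here.

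Inhibitors of the pathway other than Socs3 were called in both directions. Of 15 inhibitor and phosphatase genes, Socs1 and Cish rose, Dusp3, Pias1 and Pias3 fell, and 10 did not pass the test. Socs1, an inhibitor of JAK kinases that is strongly induced by interferon-gamma, had 5.02, 6.81, 4.89 and 5.28 in anti-LIF mice, against 4.20, 4.28, 4.84 and 4.31 in control mice. Anti-LIF replicate 6 was far above the others, and the gap between the lowest anti-LIF mouse and control replicate 3 was small. The difference was 1.09 (adjusted p = 0.074 from limma), and 0.65 without replicate 6. The call was lost without anti-LIF replicate 8 or control replicate 1, 2 or 4. Cish, an inhibitor known for STAT5 signals, had a difference of 0.37 (adjusted p = 0.092), which passed in 1 of 8 runs with a mouse left out and in 0 of the 24 pairings, and not after centring each array on its median (adjusted p = 0.16). Dusp3, a dual-specificity phosphatase gene, was the steadiest of the list, at -0.98 (standard error 0.15, adjusted p = 0.0034) and called without each of the 8 mice. Pias1 (-0.43) and Pias3 (-0.41), genes of STAT inhibitor proteins, were not called with quantile normalization again (-0.22 and -0.29), and without control replicate 2 or 3 or anti-LIF replicate 7 neither was called. The call of Pias3 was also lost without anti-LIF replicate 5 or 8.

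Of 24 genes that STAT3 is known to activate, 4 fell, 1 rose and 19 were not called. Most genes of the array, 18448 of 22180, were likewise not called, with 11.0% called lower and 5.79% higher. At levels of 6 to 7 and 7 to 8, 21.7% and 29.5% of all genes were called lower. The median difference of the 24 genes was -0.21, against 0.03 over all genes. It was -0.16 for genes at a level of 6 to 7 and -0.22 for genes at 7 to 8. Bcl6, a transcriptional repressor gene, had 5.81, 6.48, 5.83 and 6.01 in anti-LIF mice, against 6.82, 7.09, 7.49 and 6.98 in control mice. Every anti-LIF mouse was lower, with a difference of -1.06 (standard error 0.19, limma's adjusted p = 0.0065), and it was called without each of the 8 mice. Fos (-0.95, adjusted p = 0.019) and Junb (-0.59, adjusted p = 0.041) encode AP-1 subunits that many other stimuli also induce, and Il4ra (-0.55, adjusted p = 0.046) encodes the interleukin-4 receptor chain. Junb lost its call without control replicate 2 or 3 and Il4ra without control replicate 3 or anti-LIF replicate 7, and with quantile normalization again neither passed (adjusted p = 0.18 and 0.21). Icam1, an adhesion molecule gene that interferon also induces, had a difference of 0.57 (adjusted p = 0.029). With quantile normalization again 2 of the 24 genes were called lower, Bcl6 and Fos, and 2 higher, Icam1 and Cebpb.

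Receptors of other cytokines that activate STAT3 were described in the same way. Of 8 genes, Il10rb (-0.64, adjusted p = 0.024 from limma) and Egfr (-0.57, adjusted p = 0.042) fell, Lepr (0.97, adjusted p = 0.015) rose, and 5 did not pass the test. Il10rb encodes a receptor chain that interleukin-10 shares with other cytokines, Egfr encodes the epidermal growth factor receptor, and Lepr encodes the leptin receptor. Lepr was dim, at 3.66, 3.60, 4.32 and 3.18 in anti-LIF mice, against 2.70, 2.60, 2.90 and 2.67 in control mice, which all lie below the level that 95% of olfactory receptor genes stay under. The groups did not overlap all the same, and the call held without each mouse in turn. Egfr lost its call without control replicate 3 or anti-LIF replicate 7 or 8, and with quantile normalization again (-0.43, adjusted p = 0.11).

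**Figure D4:**
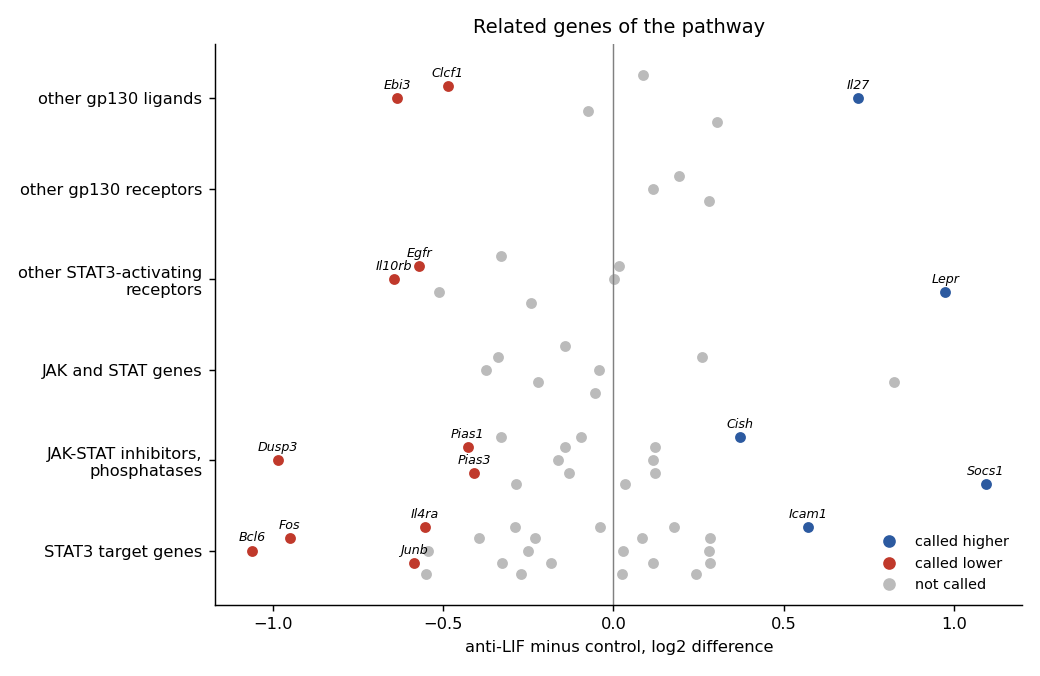
Log2 difference (anti-LIF minus control, x axis) of every measured gene in 6 lists of related genes (y axis), coloured by call at an adjusted p under 0.1 from limma. Each list with a called gene holds calls in both directions, from Bcl6 at -1.06 to Socs1 at 1.09.

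Across the 8 mice, the genes most like each of the brighter members were found by Pearson correlation among genes above the median level, as a description over 8 arrays that hold both groups, so that a difference between the groups enters r. Socs3 varied most closely with Saa3 (r = 0.991), an acute-phase gene that is also on the list of STAT3 targets, and with Rgl1 (r = 0.988). Anti-LIF replicate 5 was the lowest mouse for both Socs3 and Saa3, and had Saa3 at 8.72 against 10.03 to 10.89 in the others. How much of r that mouse carried was not tested. Lif varied most closely with Iqgap1 (r = 0.985) and Hax1 (r = 0.983), and Il6st with Cwc22 (r = 0.976) and Stard13 (r = 0.972). The closest genes were Herpud2 (r = 0.986) and Vav1 (r = 0.975) for Osm, Mfsd11 (r = 0.987) and Slc43a2 (r = 0.982) for Il6ra, Zfp955b (r = 0.971) and Tbl3 (r = 0.965) for Osmr, Oxnad1 (r = 0.943) and Pla2g2d (r = 0.942) for Lifr, and Lce3c (r = 0.957) and Smc4 (r = 0.949) for Stat3. Among the 10 genes themselves, Osm and Il6ra varied together (r = 0.761), and Stat3 varied opposite to Il6ra (r = -0.881).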

How the data were processed

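RNA from CD11b+ cells was hybridized to 1 array per mouse. The authors deposited log2 intensities after RMA normalization (by Progenika), and the processing notes name R 3.1.2. Which program ran RMA is not given here. No scanner files were used, and the medians of the arrays ran from 4.38 to 4.57. Of 41345 features, the 23521 that carry exactly 1 symbol gave 22180 genes (means of their features), without a filter on low values, and 1820 with several symbols and 16004 with none did not enter. Groups were compared across all genes with limma 3.58.1 in R 4.3.3 (lmFit and eBayes), adjusted by Benjamini-Hochberg, at the threshold the study used (0.1). The methods name paired samples without naming the pairs, so the fit had no block, and all 24 pairings were run as alternatives. Exact two-sided permutation tests covered the 70 assignments of the 8 arrays. The other alternatives concerned the treatment of features, scaling, variance model, array weights, threshold and each array left out. The script was tested on simulated data. Plots used matplotlib 3.10.9 in Python 3.11.15. Precision is limited by having 8 arrays (median standard error 0.156). The genes and lists were chosen with earlier results of these data known. Named genes were the 10 members, up to 4 called genes per list, Jak1, Jak2 and Tyk2, and the 2 most correlated genes of each brighter member. Cish and Il4ra, the fifth called genes of their lists, Stat2, Cebpb, the marker genes named and the olfactory receptor yardstick were chosen after their values were seen.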

Additional observations from a re-analysis of the deposited data

How the results depend on the processing

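Lif stayed lower and past the threshold under all 9 other settings and all 24 pairings, and was not called without control replicate 3 or 4. Of the 10 genes, 4 were called lower with arrays centred on their medians or with unnamed symbols left out (Osm and Il6ra in addition to Lif and Il6st). The same 4 were called lower with genes above the median level, a setting in which Il6 and Il11 were too dim to be tested. With quantile normalization again, at an adjusted p under 0.05 and in the pairing with the fewest calls, 1 was called lower. Quantile normalization again called 1 gene higher (Stat3). With 1 mouse left out, 0 (without control replicate 3) to 3 (without control replicate 1) genes were called lower. Over all genes, 1454 instead of 2448 were called lower with quantile normalization again, and 674 instead of 1284 higher at an adjusted p under 0.05, and 802 to 1357 higher with 1 mouse left out. Higher calls made up 34.4% of all calls, 47.7% with quantile normalization again and 21.6% with centred arrays. The direction of Socs3 turned with quantile normalization again (0.044). With 1 mouse left out, differences ran from -0.20 to 0.043 for Socs3, from -0.35 to 0.14 for Il6 and from -0.017 to 0.38 for Il11. The cause of these changes was not tested. No paired analysis by replicate number was possible because the groups share no replicate number. Dim signal limits what can be said of Il6, Il11, Lepr, the 3 further receptor genes of the IL-6 family and some of its uncalled ligand genes. Both group means of Lif also lay below the level that 99% of olfactory receptor genes stay under.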
